A study of Drosophila melanogaster with 6 samples.

Results

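The maltase genes of Drosophila melanogaster form a family of 10 paralogues, Mal-A1 to Mal-A8 and Mal-B1 and Mal-B2, and all 10 had a probe set of their own on the arrays analysed here. They were taken by gene symbol, from probe sets annotated to a single gene. That gave 10 probe sets, 1 for each gene, out of 13647 probe sets that named 11982 genes, and 0 further probe sets paired a maltase with another gene. The study compared embryos of the w1118 stock, labelled wild type, with embryos of a clbn knock-out stock, labelled as having a w1118 strain background. Clbn (Caliban) is the fly homologue of NEMF, which acts in ribosome-associated quality control, and the series title ties it to the mitochondria of enterocytes and to gut homeostasis. Both genotypes were sampled as embryos of 0 to 24 h from stocks held at 25 °C on corn meal food, total RNA was labelled, and each of 6 samples was read on 1 Affymetrix array, 3 arrays per genotype. A whole collection mixes embryos of many ages and all tissues, so that fewer cells of a type and less RNA per cell cannot be told apart. The labels do not say that arrays of 1 genotype came from separate collections, and p-values therefore measure only the spread between these samples, which may be technical.

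Maltases are alpha-glucosidases that split maltose and short starch fragments into glucose. In the fly they are best known as enzymes of the larval and adult midgut, where amylases first cut starch and sugar transporters then take up the glucose, and where food sugar lowers the expression of several digestive carbohydrases. The gene table used for names lists Mal-A1, Mal-A2 and Mal-A3 also as LvpH, LvpD and LvpL, the larval visceral protein genes. The embryo itself does not feed. The family lies in a pair of clusters on chromosome 2, whereas clbn lies on arm 3R. On arm 2R the 8 Mal-A genes follow each other from Mal-A1 (CG8696) to Mal-A8 (CG8690) with no other annotated gene between them, flanked by Cyp4e1 before Mal-A1 and by mtt after Mal-A8. On arm 2L Mal-B1 (CG14934) and Mal-B2 (CG14935) are direct neighbours. Coordinates are left out because the genome build behind the array design is not stated in the labels or the file.

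No maltase passed the test between the genotypes. Limma called 0 of 10 at an adjusted p below 0.05, where it called 3.56% of all 18769 probe sets, and 3 of 10 had an unadjusted p below 0.05 (18.8% of all probe sets). With the array number of the labels as a block the counts were 0 and 6 (5.21% and 22.5% of all probe sets). The estimates were below 0 for all 8 Mal-A genes and above 0 for both Mal-B genes, except that Mal-A7, close to 0, turned to 0.00 with quantile normalisation and 0.05 with median centring of the arrays. Their median log2 difference, knock-out minus w1118, was −0.23 over the family, against 0.01 over all probe sets, of which 47.2% lay below 0. The values are log2 expression levels, and the level of a probe set is not compared with that of another.

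**Figure D1:**
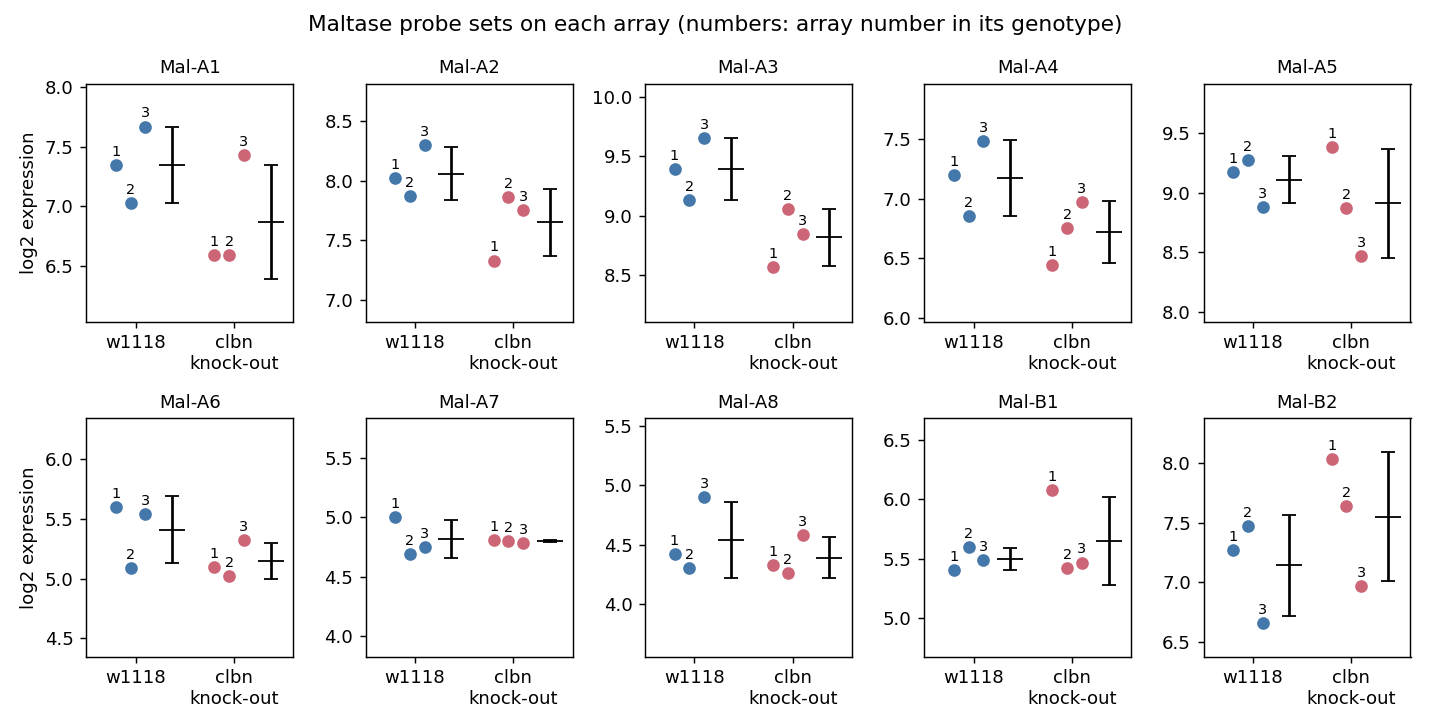
Each panel shows 1 maltase, with log2 expression on the vertical axis over a span of 2 log2 units, the 3 arrays of each genotype as points marked by array number, and the mean ± SD as a bar to the right of the points. The genotypes overlap for all members except Mal-A2 and Mal-A3, and in Mal-B2 the spread among arrays of a genotype is as wide as the distance between genotypes.

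The first 4 genes of the 2R cluster, Mal-A1 to Mal-A4, had the largest differences among the Mal-A genes, with log2 values between −0.57 and −0.41 and a median of −0.47. That order rested on single arrays. Without knock-out array 1 the log2 difference was −0.44 for both Mal-A3 and Mal-A5, −0.34 for Mal-A1, −0.32 for Mal-A4 and −0.26 for Mal-A2. Without w1118 array 3 it was −0.44 for Mal-A3, −0.32 for Mal-A1 and Mal-A5 and −0.30 for Mal-A2 and Mal-A4. Knock-out array 1 had the widest 3′ to 5′ difference in the control probe sets, and the part of that difference was not tested. Mal-A3 read 9.39, 9.13 and 9.65 in w1118 arrays 1 to 3 and 8.57, 9.06 and 8.85 in knock-out arrays 1 to 3. Every knock-out array of Mal-A3 was below every w1118 array, by a gap of 0.069 log2 at the nearest. The means of w1118 and the knock-out were 9.39 ± 0.26 and 8.82 ± 0.24 (SD, 3 arrays each), which gives a log2 difference of −0.57 (SE 0.16, 95% interval −0.94 to −0.19). This corresponds to a level 1.48-fold lower in the knock-out, and limma gave an unadjusted p of 0.00842 and an adjusted p of 0.11, the smallest in the family.

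Mal-A2, the neighbour of Mal-A3, read 8.02, 7.87 and 8.3 in w1118 and 7.33, 7.86 and 7.75 in the knock-out. Its arrays did not overlap either, but the gap was 0.009 log2, and the second arrays of both genotypes read almost the same. The log2 difference was −0.41 (SE 0.16, 95% interval −0.79 to −0.04, limma adjusted p = 0.217). These were the only maltases without overlap, 2 of 10, against 24.9% of all probe sets. Mal-A2 and Mal-A3 moved closely together from array to array. The log2 difference between their probe sets, Mal-A2 minus Mal-A3, had a w1118 mean of −1.33 ± 0.06 and a knock-out mean of −1.18 ± 0.07 (SD, 3 arrays each). These spreads were well below the 0.25 that each gene had on its own. Other pairs were as close in w1118 but wider in the knock-out, with SDs of 0.03 and 0.31 for Mal-A1 minus Mal-A4 and 0.05 and 0.21 for Mal-A3 minus Mal-A4. Whether probes of these paralogues read each other's transcripts was not tested.

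Mal-A4 read 7.2, 6.85 and 7.48 in w1118 and 6.44, 6.75 and 6.97 in the knock-out. The genotypes overlapped, since knock-out array 3 was above w1118 array 2. The log2 difference was −0.46 (SE 0.18, 95% interval −0.88 to −0.03, limma adjusted p = 0.233). Mal-A1, the first gene of the cluster, read 7.35, 7.03 and 7.67 in w1118 and 6.59, 6.59 and 7.43 in the knock-out. Knock-out array 3 stood within the w1118 range and the other knock-out arrays below it. The log2 difference was −0.48 (SE 0.25, 95% interval −1.06 to 0.09, limma adjusted p = 0.352). With the array number as a block, limma gave Mal-A1 an unadjusted p of 0.00441 and an adjusted p of 0.0644, which did not pass either.

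The other 4 genes of the cluster, Mal-A5 to Mal-A8, had smaller differences, between −0.26 and −0.02, with limma adjusted p-values from 0.393 to 0.947. Mal-A5 read 9.17, 9.27 and 8.88 in w1118 and 9.38, 8.87 and 8.47 in the knock-out. Knock-out array 1 was the highest of all and knock-out array 3 the lowest, so the knock-out range enclosed that of w1118. The log2 difference was −0.20 (95% interval −0.70 to 0.30). Mal-A6 read 5.6, 5.09 and 5.54 in w1118 and 5.1, 5.02 and 5.32 in the knock-out, with overlap and a log2 difference of −0.26 (95% interval −0.60 to 0.08).

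Mal-A7 and Mal-A8, at the far end of the cluster, lay close to the first quartile of all values (4.33 log2). Without detection calls, which were not used here, signal and background cannot be told apart at that level. Mal-A7 read 5, 4.69 and 4.75 in w1118 and 4.81, 4.8 and 4.78 in the knock-out. It had the narrowest spread of the family, a pooled SD of 0.12, and a log2 difference of −0.02 (95% interval −0.23 to 0.20). Near background a probe set can understate a change, so this interval does not bound the change of Mal-A7. Mal-A8 read 4.42, 4.3 and 4.9 in w1118 and 4.33, 4.26 and 4.58 in the knock-out, again with overlap, and its log2 difference was −0.15 (95% interval −0.53 to 0.22).

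The Mal-B genes on 2L had estimates above 0 with wide intervals. Mal-B2 read 7.27, 7.47 and 6.66 in w1118 and 8.03, 7.64 and 6.97 in the knock-out. Knock-out array 1 was the highest, and knock-out array 3 lay within the w1118 range. The means were 7.14 ± 0.42 and 7.55 ± 0.54 (SD, n = 3 each), and the log2 difference was 0.41 (SE 0.29, 95% interval −0.26 to 1.08, limma adjusted p = 0.504), which spans levels from 0.836-fold to 2.12-fold of w1118. The suffix of its probe set, the single one in the family other than the plain "_at", is the one Affymetrix gives to probes shared by transcripts of 1 gene. Mal-B1 read 5.41, 5.6 and 5.49 in w1118 and 6.08, 5.42 and 5.47 in the knock-out. Only knock-out array 1 was outside the w1118 range. The log2 difference of 0.15 (95% interval −0.24 to 0.55, limma adjusted p = 0.696) became −0.06 without that array.

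**Figure D2:**
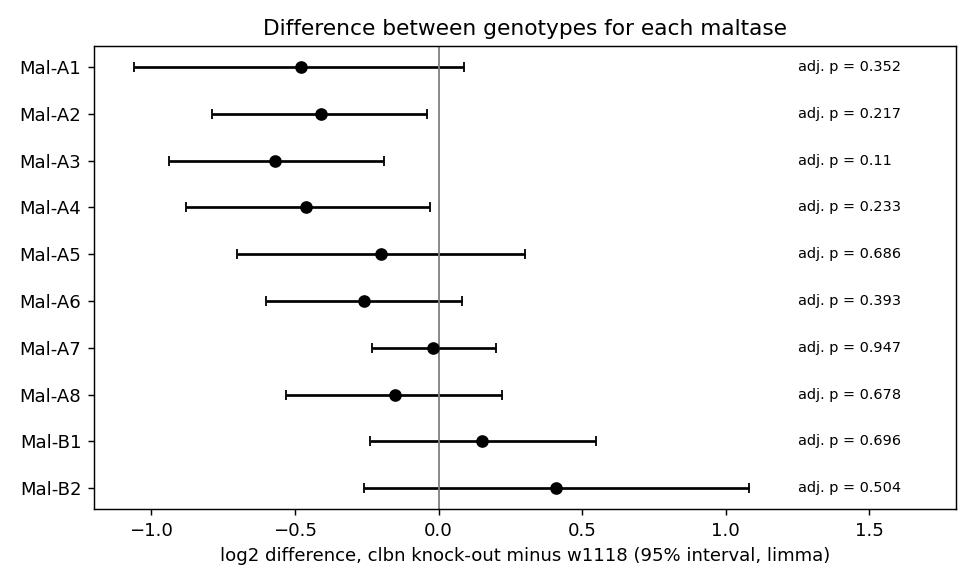
The horizontal axis gives the log2 difference, knock-out minus w1118, for each maltase in gene order, with limma's 95% interval and its adjusted p at the right. The intervals of Mal-A2, Mal-A3 and Mal-A4 lie below 0 before adjustment over all probe sets, and the estimates of Mal-B1 and Mal-B2 are the only ones above 0 in the deposited scaling, where Mal-A7 lies at −0.02.

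The labels number the arrays but state no pairing between genotypes. Over all probe sets, deviations from the genotype mean correlated at 0.25, 0.23 and 0.39 between arrays of equal number. Between arrays of unequal number the correlations ran from −0.33 to 0.09. Deviations from a mean of 3 arrays depend on each other, and so do these correlations. Within pairs of equal number (numbered pairs), 6 of the 10 maltases were lower in the knock-out in all 3 pairs, against 20.8% of all probe sets. They were Mal-A1 to Mal-A4, Mal-A6 and Mal-A8, of which Mal-A8 turned to 0.06 in pair 1 with median centring. Mal-A1 to Mal-A4 and Mal-A8 shared their order of arrays in w1118, so these genes do not count as independent observations and the count was not tested. The size differed among pairs. For Mal-A3 the log2 difference was −0.82 in pair 1, −0.07 in pair 2 and −0.81 in pair 3, and for Mal-A2 it was −0.69, −0.01 and −0.55. Mal-A4 followed the same course with −0.76, −0.09 and −0.51. Pair 2 thus held almost none of the difference of these 3 genes, whereas Mal-A1 had −0.76, −0.44 and −0.24.

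Mal-B2 was the single maltase that was higher in the knock-out in all 3 pairs (25.2% of all probe sets were), with log2 differences of 0.76, 0.17 and 0.30. Mal-B1 was higher in pair 1, by 0.67, and had −0.18 and −0.02 in the others, the last of which became 0.03 with median centring. With the block, the adjusted p from limma was 0.121 for Mal-B2, 0.105 for Mal-A3, 0.11 for Mal-A4 and 0.148 for Mal-A2. None passed.

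**Figure D3:**
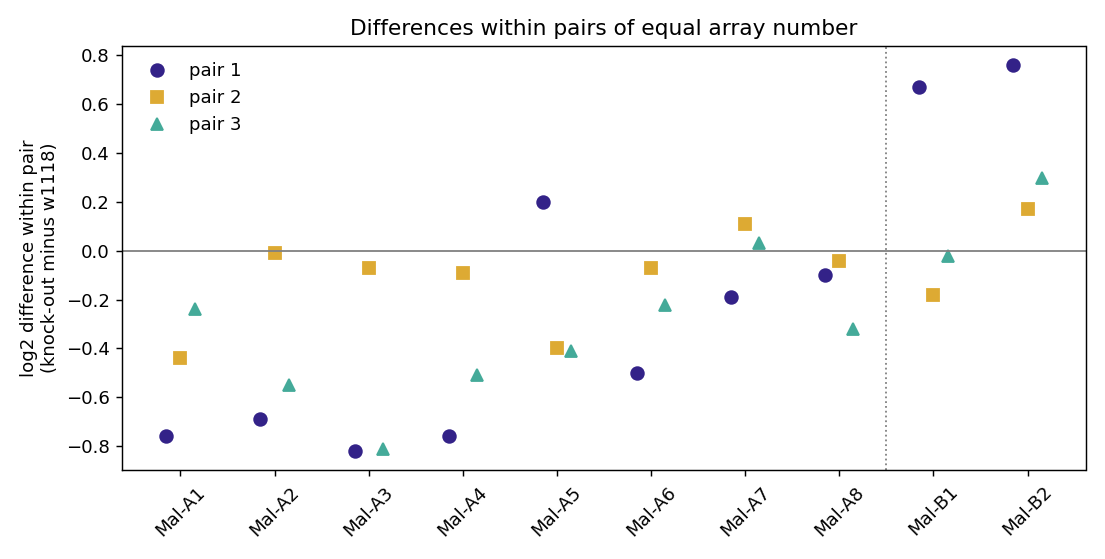
The vertical axis gives the log2 difference, knock-out minus w1118, between the arrays of equal number, with 1 symbol per pair and the maltases in gene order; the dotted line parts the 2R from the 2L cluster. All 3 symbols lie below 0 for Mal-A1 to Mal-A4, Mal-A6 and Mal-A8 and above 0 for Mal-B2 (in pair 1, Mal-A8 lies at −0.10, and at 0.06 with median centring), and pair 2 lies near 0 for Mal-A2, Mal-A3 and Mal-A4.

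Maltase levels varied more between arrays of 1 genotype than most probe sets did. The pooled within-genotype SD was 0.48 for Mal-B2, which exceeded that of 99% of all probe sets, and 0.41 for Mal-A1, which exceeded that of 98.2%. It was 0.35 for Mal-A5 and from 0.22 to 0.29 for Mal-A2, Mal-A3, Mal-A4, Mal-A6, Mal-A8 and Mal-B1, against a median of 0.11 over all probe sets. Mal-A7, at 0.12, was the exception. On simulated data, limma recovered 44.1% of probe sets changed by 0.5 log2 and 90.9% of those changed by 1 log2. The simulation kept the real within-genotype SD of each probe set but drew independent noise, without shifts shared by the probe sets of an array. The rates were taken over all probe sets, most of which vary less than the maltases.

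Some of the members followed opposite courses over the arrays. In w1118, array 3 was the highest and array 2 the lowest for all of Mal-A1, Mal-A2, Mal-A3, Mal-A4 and Mal-A8. Mal-A5 and Mal-B2, which lie on different arms, ran the other way, with array 2 the highest and array 3 the lowest. Mal-A6, Mal-A7 and Mal-B1 had neither order. In the knock-out, array 1 was the lowest for Mal-A1 to Mal-A4 and the highest for Mal-A5, Mal-A7, Mal-B1 and Mal-B2. The knock-out readings of Mal-A7 were almost equal (4.81, 4.8 and 4.78), and array 1 was at neither end for Mal-A6 and Mal-A8. As deviations from the genotype mean, knock-out array 1 stood at 0.47 for Mal-A5 and 0.49 for Mal-B2, and between −0.32 and −0.25 for Mal-A1 to Mal-A4.

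**Figure D4:**
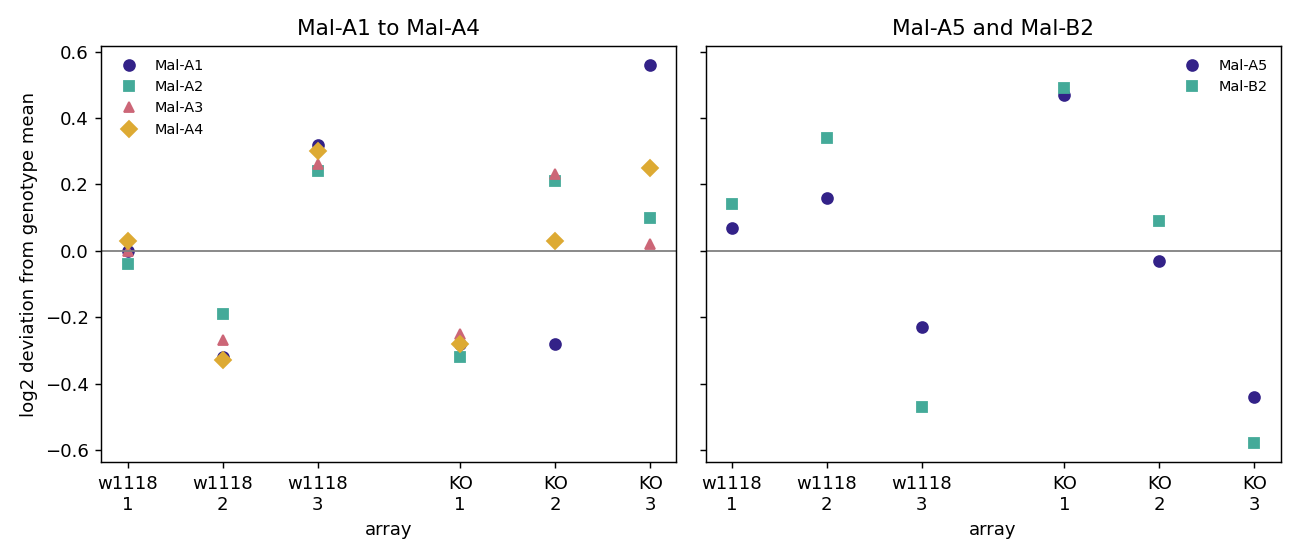
The vertical axis gives the log2 deviation of each array from the mean of its own genotype, with w1118 arrays at the left and knock-out (KO) arrays at the right of each panel. Mal-A6, Mal-A7, Mal-A8 and Mal-B1 are not drawn. Arrays w1118 3 and knock-out 1 deviate in opposite directions in the panels, 0.24 to 0.32 and −0.32 to −0.25 for Mal-A1 to Mal-A4, against −0.47 to −0.23 and 0.47 to 0.49 for Mal-A5 and Mal-B2.

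Other measures also set these arrays apart. Knock-out array 1 read 3′ control probe sets 1.24 log2 above 5′ ones on average over actin, eIF-4a and GAPDH, against 0.67 to 0.78 on the other 5 arrays. Some markers of other cell types moved too, and their part in the maltase differences was not tested. The 3 of 4 neuronal markers that were measured had a mean level of 7.93 to 8.27 in w1118 and 7.56 to 7.87 in the knock-out, highest on w1118 array 3 and lowest on knock-out array 1. The 2 of 4 muscle markers measured ranged from 11.9 to 12.14 and from 11.53 to 11.65, with the same highest and lowest arrays. Limma called none of these 5 markers (3.56% of all probe sets), 4 of which had an unadjusted p below 0.05 (18.8% of all probe sets). By p the first were brp, a synaptic gene (log2 −0.40, adjusted p = 0.146), and Tm2, a tropomyosin gene (log2 −0.42, adjusted p = 0.0597). With the array number as a block limma called 2 of the 5 as lower, where it called 5.21% of all probe sets. They were elav, a neuronal RNA-binding protein gene (log2 −0.49, adjusted p = 0.0204 with the block and 0.17 without), and Tm2 (0.0458 with the block). The 4 late epidermis markers ranged from 7.11 to 7.36 and from 6.79 to 7.11, and 1 of them fell, Tb, a cuticle protein gene (log2 −1.15, limma adjusted p = 0.0108). The rest of that list had log2 differences between −0.14 and 0.04, none called, so its mean differed mainly through Tb.

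For markers of the midgut, the organ in which maltases act after hatching, the mean level overlapped between the genotypes, though single markers did not. The 6 of 8 that were measured had a mean level of 8.58 to 8.93 in w1118 and 8.71 to 8.84 in the knock-out, and a median log2 difference of −0.05. None was called by limma, and 1 had an unadjusted p below 0.05, Jon65Aiii, which encodes a serine protease of the gut, with a log2 difference of 0.50 (adjusted p = 0.0784). The mean of the midgut markers was highest on w1118 array 3 and lowest on w1118 array 2, the order that Mal-A1 to Mal-A4 had in w1118. Among the knock-out arrays the order was not the same, with array 1 the highest for the midgut markers. Of the fat body markers 2 of 5 were measured and of the Malpighian tubule markers 3 of 5, and limma called none of them, also not at an unadjusted p below 0.05, with the smallest adjusted p for Lsp2, a larval serum protein gene (log2 −0.10, 0.722), and Irk2, a potassium channel gene (log2 −0.31, 0.52).

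Whether paralogues differed from each other in their response was tested on the log2 difference between their probe sets within each array, for all 45 pairs. The exact two-sided permutation test of 3 arrays against 3 cannot go below p = 0.1, which 4 of the 45 pairs reached, and the smallest adjusted p was 0.587. About that many pairs reach the floor when no pair differs. The widest of the 4 was that of Mal-A5 and Mal-B2, the genes with the same course over the arrays. Mal-A5 minus Mal-B2 was 1.9, 1.8 and 2.21 in w1118 and 1.34, 1.23 and 1.5 in the knock-out. No array of a genotype reached into the other's range, and the means of 1.97 ± 0.22 and 1.36 ± 0.14 (SD, n = 3 each) differed by −0.61. The other 3 pairs were Mal-A3 with Mal-A7 (−0.55), Mal-A4 with Mal-A8 (−0.30) and Mal-A2 with Mal-A3 (0.15). Within the numbered pairs, Mal-A5 minus Mal-B2 was lower in the knock-out each time, with changes of −0.56, −0.57 and −0.71. They come from the same array values by which this pair was picked, so they add no support. The difference to Mal-B2 was lower in the knock-out in all 3 pairs for all 8 Mal-A genes, with the smallest change for Mal-A7 in pair 2 (−0.06). These within-pair values are a description with no test, they all share Mal-B2, and 22 of the 45 pairs of paralogues changed in the same direction in all 3 numbered pairs.

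The genes that border the clusters were measured for 6 of the 10 nearest on 2R and 5 of the 10 nearest on 2L, chosen by position. Limma called none of these 11 at an adjusted p below 0.05 (3.56% of all probe sets), and 3 had an unadjusted p below 0.05 (18.8% of all probe sets). Cyp4e1, a cytochrome P450 gene directly before Mal-A1, had a log2 difference of 0.49 (95% interval 0.13 to 0.86), opposite in sign to Mal-A1. Further out on that side, Cyp4e2 and Cyp4ad1 had −0.14 and −0.23, of the same sign as Mal-A1. The gene directly after Mal-A8, mtt, which encodes a relative of metabotropic glutamate receptors, had −0.31 (95% interval −0.77 to 0.15).

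Mal-B2 had the widest range over the 6 arrays, 1.37 log2. The 5 genes outside the family whose levels followed it most closely, by Pearson's r over the 6 arrays, were Rad17 (0.993), shu (0.992), CG31388 (0.989), Aven (0.988) and CG5377 (0.988). They were picked as the highest of all genes over only 6 arrays, which share their genotype and array, so the values are descriptive. That all 5 had the same order of arrays as Mal-B2 within each genotype, and a difference of the same sign, follows largely from this choice. Their log2 differences were 0.10 to 0.26, none called by limma.

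Other genes of carbohydrate use were largely not past the threshold either. Over 5 lists, 48 of 59 genes were measured, and 1 rose and 0 fell (4.51% of all genes were called). An unadjusted p below 0.05 was found for 11 (18.8% of all probe sets), and the median log2 difference was −0.02. For the unadjusted p the share over all genes was not computed. Ect3, which encodes a lysosomal-type beta-galactosidase, was the one that rose. It read 8.68, 9 and 8.79 in w1118 and 9.75, 9.71 and 9.79 in the knock-out, and the level was 1.9-fold higher (log2 0.92, limma adjusted p = 0.00245). With the array number as a block 3 of the 48 were called, 1 higher and 2 lower, against 5.21% of all probe sets. The lower genes were Slc45-1, which encodes a sucrose transporter (log2 −0.59, adjusted p = 0.0369 with the block and 0.0768 without), and Glyp, the glycogen phosphorylase gene (log2 −0.49, adjusted p = 0.0477 with the block and 0.0649 without).

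Other genes of alpha-glucosidases, amylases and their relatives showed no call. Of 6 measured genes in the list of alpha-glucosidase relatives and amylases, 0 passed and 0 had an unadjusted p below 0.05, with log2 differences from −0.09 to 0.13. They include tobi, an alpha-glucosidase gene under insulin control (−0.09), CD98hc, whose product is a non-enzymatic relative that serves amino acid transport (−0.02), Amyrel, an amylase relative (−0.03), and GCS2beta, a glucosidase subunit of the endoplasmic reticulum (0.13). Amy-p and Amy-d had no probe set of their own here. In the sugar sensing and glycogen list 0 of 15 passed without the block, where Glyp had the smallest p, followed by Hex-C, a hexokinase gene (log2 −0.55, limma adjusted p = 0.0784). In the taste list 0 of 5 sugar receptor genes passed, with the smallest p for Gr64f (log2 −0.23, adjusted p = 0.28).

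**Figure D5:**
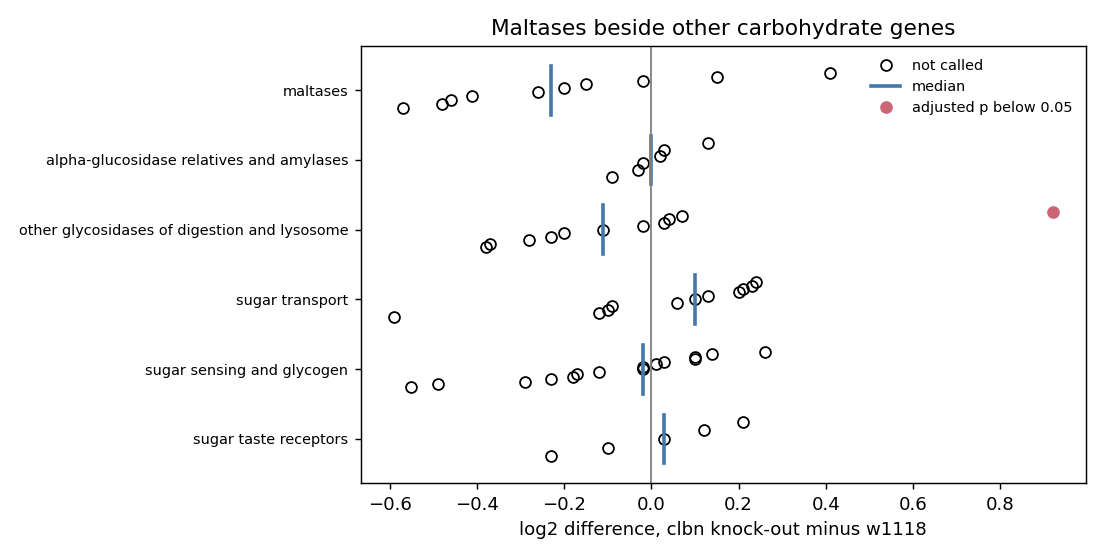
Each circle is 1 gene at its log2 difference, knock-out minus w1118, on the horizontal axis, with the maltases in the first line and the 5 other lists below; filled circles passed an adjusted p of 0.05 and bars mark the median of each list. Ect3 at 0.92 is the single filled circle, and the maltase median of −0.23 stands beside list medians of −0.11 to 0.10.

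Across the arrays the targeted gene was lower in the knock-out, with a mean of 5.28 ± 0.14 against 8.19 ± 0.30 (SD, 3 arrays each; log2 −2.91, limma adjusted p = 7.01e-05), though the position of its probes relative to the deleted part was not analysed here. The values ran from 2.84 to 14.52 log2, with array medians of 6.17 to 6.36. Arrays count no molecules, and the precision is limited by their number, 3 per genotype. The labels give a w1118 strain background for the knock-out but record no backcross, so an effect of clbn loss and other differences between the stocks cannot be told apart for the maltases or any other gene.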

How the data were processed

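Expression was measured in 3 w1118 and 3 clbn knock-out samples on Affymetrix arrays. The values deposited by the authors are on a log2 scale, as read from the values themselves. The affy package is named, with no version or role, per the submitters' processing notes; the handling of background, probe summary and scaling is not stated there. The columns already shared a scale and were not normalised again. Of 18769 probe sets besides 183 controls, 13647 named 1 gene, 402 several and 4720 were not listed in the annotation. Symbols were matched by gene identifier to RefSeq Release 6 for 13544, and 0 changed. For a gene with several probe sets, the one with the highest mean over the arrays was used.

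Differences were fitted over all 18769 probe sets by lmFit and eBayes of limma 3.58.1, with no covariate (R 4.3.3), with Benjamini-Hochberg adjustment over all of them and a threshold of 0.05. Differences within arrays between paralogues were tested by exact permutation (scipy 1.17.1, Python 3.11.15). The fit was tested on simulated data with independent noise, in 5 runs with 200 changed probe sets each, where 4.07% of calls were false. The members, lists and tests were chosen with earlier results of these data known, and list symbols were updated after the annotation was seen. The genes named were the 10 members, clbn, per list up to 3 called genes or otherwise the gene of smallest p, and the 5 genes most like the member of widest range; the relatives, flanking genes, Hex-C and elav named besides these were chosen after their values were seen.

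Arrays of equal number were treated as pairs because their deviations from the genotype means correlated at 0.25, 0.23 and 0.39 over all probe sets; this pairing comes from the data, not from a stated batch. The alternatives were quantile normalisation, median centring, a pair of filters on dim probe sets, array weights, a trended robust variance, the block and leaving out each array.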

Additional observations from a re-analysis of the deposited data

How the results depend on the processing

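Under 13 alternative fits the maltases gave 126 values, and 1 passed the threshold. With array weights Mal-A3 was called (log2 −0.51, adjusted p = 0.0401, range over its alternatives 0.0401 to 0.314), so that 1 of 10 members passed; that setting called 1539 probe sets and 3 carbohydrate genes, and it gave knock-out array 1 the lowest weight (0.369) and w1118 array 1 the highest (4.46). The replicate block called 978 probe sets, 0 members and 3 carbohydrate genes, and the trended robust variance called 740 probe sets and 2 carbohydrate genes. Without single arrays, 0 members were called, and the number of probe sets called ranged from 190 without w1118 array 1 to 607 without knock-out array 1. Leaving out w1118 array 3 gave 256, and leaving out knock-out arrays 3 and 2 gave 344 and 357. The median log2 difference of the members lay between −0.43 and −0.16 over the 13 fits. The −0.43 came from the stricter filter on dim probe sets, which left 6 members. With all 10 members the lowest was −0.35, without w1118 array 2. The test of paralogue pairs cannot pass the threshold at 3 arrays against 3 under any scaling, so its count says nothing about stability. No sign change was seen for 6 members, Mal-A1 to Mal-A4, Mal-A6 and Mal-B2, but their sizes moved. Over the fits that left out 1 array, Mal-B2 ranged from 0.17 (without knock-out array 1; 0.18 without w1118 array 3) to 0.70 (without knock-out array 3), Mal-A1 from −0.76 (without knock-out array 3) to −0.32 (without w1118 array 3), Mal-A2 from −0.52 to −0.26 (without knock-out array 1), Mal-A3 from −0.70 to −0.44, Mal-A4 from −0.62 to −0.30 (without w1118 array 3) and Mal-A6 from −0.42 (without w1118 array 2) to −0.17 (without w1118 array 1). Small estimates changed sign, and the cause was not tested. Mal-A7 was at 0.00 with quantile normalisation and 0.05 with median centring. Over the same fits Mal-A7 ranged from −0.08 to 0.08 (highest without w1118 array 1), Mal-A8 from −0.27 to 0.03 (without w1118 array 3), Mal-B1 from −0.06 (without knock-out array 1) to 0.27 and Mal-A5 from −0.44 to 0.02 (without knock-out array 3). The stricter filter on dim probe sets left 6 members, without Mal-A6, Mal-A7, Mal-A8 and Mal-B1, and 0 were called.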
